A study of Mus musculus with 15 samples.

Results

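Matricellular proteins and lysyl oxidases were followed in RNA of mouse whole hearts, on the probe sets whose only annotated gene symbol was Postn, Tnc, Thbs1, Spp1, Sparc, Lox, Loxl1, Loxl2, Fn1 or Hspg2. There were 17 such probe sets, for 8 of the 10 genes, among 45101 on the array. No probe set had Spp1 or Loxl2 as its only symbol, and 3 probe sets that listed a member beside another symbol were not used. A filter on low signals, a mean over the timed arrays at or above the median signal of 526.7, left 12 of the 17 probe sets, for 7 genes, among 21272. A single array per time was made of each arm, aldosterone and control, at 0.5, 1, 2, 3, 4, 5 and 12 h, and the remaining array, a control at 0 h, was labelled as not injected. Per the labels the hearts were frozen in liquid nitrogen and the series followed the effect of aldosterone over time. The labels give no strain, genotype, age, dose or control injection, and do not say whether an array is 1 animal or a pool.

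The extracellular matrix of the heart is a network of collagen and glycoproteins, laid down mainly by fibroblasts, that holds cardiomyocytes and vessels in place. Matricellular proteins such as periostin, tenascin C, thrombospondin 1, osteopontin and SPARC are secreted into this matrix and act on cells and on matrix assembly more than as building blocks, and many of them rise after cardiac injury. Lysyl oxidases are copper-dependent enzymes that crosslink collagen and elastin, and aldosterone, the adrenal mineralocorticoid, is known for promoting cardiac fibrosis over longer exposures than the hours sampled here.

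The mineralocorticoid and glucocorticoid receptors bind paired copies of the half-site AGAACA. It was searched for on both strands (AGAACA or TGTTCT), with the TATA motif (TATAAA or TTTATA), in the 250 bases before each start in RefSeq on GRCm38.p6, for the 5 members with an entry used here (8 entries). The half-site was in 1 of the 8 entries, that of Sparc, and in 16.1% of 32851 promoters. TATAAA was in 4 of the 8 entries and in 12.4% of all promoters, but the 2 Tnc entries overlap and hold the same copy. The Postn start with a TATA motif 26 bases upstream (chr3:54360857-54361106, plus strand) and the Sparc start with 2 half-sites, 78 and 14 bases upstream (chr11:55420081-55420330, minus strand), are shown because Postn differed between the arms in 1 direction at the 6 times to 5 h and Sparc was the member whose entry held the half-site. Capitals mark the motifs, in the order 5′ to 3′.
Postn: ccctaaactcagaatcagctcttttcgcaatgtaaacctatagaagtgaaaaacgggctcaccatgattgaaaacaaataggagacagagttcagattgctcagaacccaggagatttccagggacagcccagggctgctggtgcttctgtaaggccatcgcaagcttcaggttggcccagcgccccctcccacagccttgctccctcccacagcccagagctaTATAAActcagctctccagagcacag
Sparc: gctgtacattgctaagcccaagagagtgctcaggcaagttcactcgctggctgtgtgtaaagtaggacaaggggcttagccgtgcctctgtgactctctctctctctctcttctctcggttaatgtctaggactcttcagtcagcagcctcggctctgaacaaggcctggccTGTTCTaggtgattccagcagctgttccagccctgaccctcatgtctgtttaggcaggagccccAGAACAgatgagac
The search was for single half-sites, not for pairs. The 2 Sparc copies, 78 and 14 bases upstream, do not lie side by side. A match of letters is a description of this window and no measure of binding.

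Facts of the whole series that touch these genes were read from the arrays first. The lowest array median of the deposited signal was 413.8 and the highest 741.4, so signals were quantile-normalized, and all levels below are normalized log2 signals after adding 167.8. The Gapdh ratio, log2 of the 3′ over the 5′ control probe set, was used as a measure of RNA degradation. It ran from -0.23 to 3.36 in aldosterone arrays and from -0.17 to 3.92 in control arrays, and was 0.37 in the uninjected array. The same ratio for actin ran over a much narrower range, from -0.29 to 0.57 in aldosterone arrays and from -0.32 to 0.62 in control arrays, and was 0.04 in the uninjected array. The arms differed most in the Gapdh ratio at 1 h (2.54 higher with aldosterone) and 2 h (3.00 higher). The 0.5 and 3 h arrays were scanned on day 1 and the 1, 4 and 12 h arrays on day 2. The 2 and 5 h arrays and the uninjected array were scanned on day 3, so scan day and time are partly the same thing. The day 1 arrays were also of 1 chip lot and all the others of another, so day 1 and chip lot cannot be told apart. The station recorded was 2 for the day 1, 12 h and uninjected arrays and the control array at 5 h. It was 1 for the others, so the arms differed in station at 5 h. The ventricular and core cardiomyocyte markers, 10 of 10 measured, were high on every array (summed signal at least 1865010). The 9 lung epithelium markers summed to 482900 in the aldosterone array at 1 h and 213178 in the control array at 1 h, and to at most 23378 on the others. The 7 atrial markers summed to between 77511 and 505567 in aldosterone arrays, between 53172 and 483466 in control arrays, and to 524432 in the uninjected array, and the tissue content behind these levels was not measured. In whole hearts, fewer cells of a type and less RNA per cell cannot be told apart.

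The first comparison asked whether the arms differed over the 7 times, and no member passed the test. Postn was higher with aldosterone at the 6 times to 5 h and lower at 12 h, and each of the other tested probe sets was higher at some times and lower at others. By limma with time as a block, 0 of the 12 tested probe sets were called at an adjusted p under 0.05, where the share called among all 21272 was 0%, and 0 had an unadjusted p under 0.05, against 934 (4.39%) of all. The median difference of the 12 was 0.05, against 0.01 over all tested probe sets. The 95% interval of the difference lay within 2-fold in either direction for 12 of 12 and within 1.5-fold for 9 of 12. The lung and atrial marker levels and the Gapdh ratio differed within pairs too, and the part of the tissue markers in these values was not tested.

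**Figure D1:**
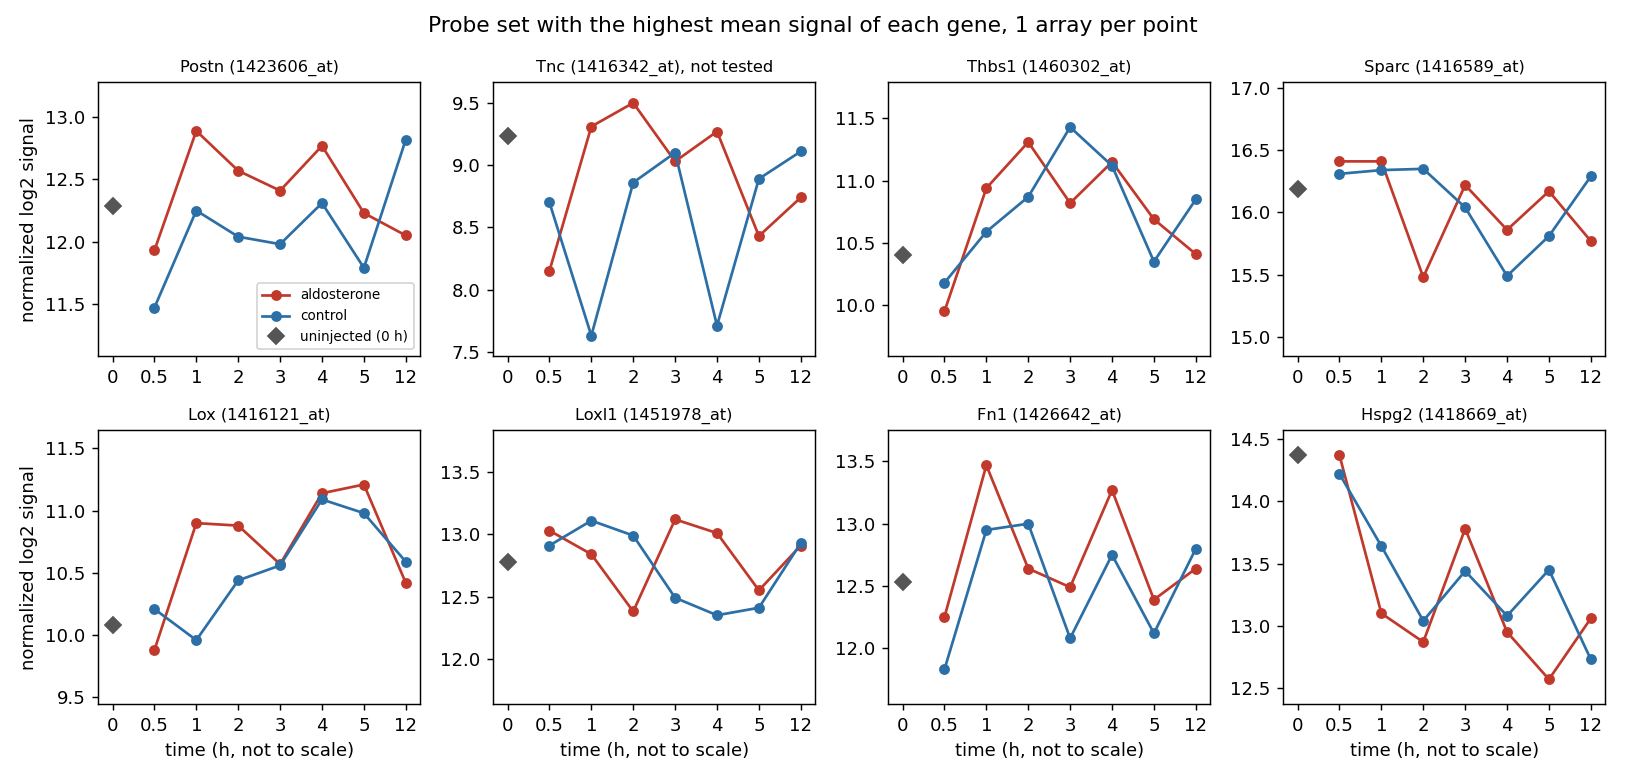
Normalized log2 signal (y axis) by time in h (x axis, not to scale) for the brightest probe set of each measured gene, with aldosterone arrays in red, control arrays in blue and the uninjected array as a grey diamond. Each point is 1 array and has no error bar. Postn lies above control with aldosterone to 5 h and below it at 12 h, Lox is highest at 4 and 5 h in both arms, and Hspg2 is highest in the 0.5 h and uninjected arrays.

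Periostin (Postn, 1423606_at), a fibroblast-derived matricellular protein that binds collagen and integrins, was higher with aldosterone in 6 of 7 pairs. With aldosterone it was 11.93, 12.89, 12.57, 12.41, 12.77, 12.23 and 12.05 at 0.5, 1, 2, 3, 4, 5 and 12 h. In the control arrays it was 11.47, 12.25, 12.04, 11.98, 12.31, 11.79 and 12.82 at the same times, and in the uninjected array 12.29. The aldosterone array was the higher of the pair at each time to 5 h and the lower at 12 h, while the ranges of the arms overlapped. From 5 to 12 h the arms moved in opposite directions, and the control array at 12 h was the highest of its arm. The difference averaged 0.31 ± 0.48 (SD, n = 7 times), and by limma it was 0.31 with a 95% interval from -0.01 to 0.63 (adjusted p = 0.973). The 12 h pair decided this value: the 6 earlier differences ran from 0.43 to 0.63 and averaged 0.49 ± 0.08 (SD), with limma giving an adjusted p of 0.833 without the 12 h arrays (unadjusted 1.03e-04).

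The level of Postn moved with that of the fibroblast markers. The 14 fibroblast markers, 14 of 14 measured, had a mean that differed between the arms by 0.11, 0.51, 0.02, 0.27, 0.05, 0.05 and -0.33 (log2, aldosterone minus control) at the 7 times in order. Their summed signal ran from 233114 to 362339 in aldosterone arrays (highest at 1 h), from 202746 to 374637 in control arrays (highest at 12 h), and was 237737 in the uninjected array. The marker difference had the same sign as that of Postn at all 7 times, and was smaller in size at each. Over the 14 timed arrays Postn had a correlation of 0.86 with the mean of these markers, points that share tissue makeup, scan day and normalization. Postn also had a correlation of 0.71 with the epicardial and mesothelial markers, 0.68 with the macrophage markers and 0.58 with the atrial markers, and from -0.46 to 0.54 with the other lists. Its correlation with the Gapdh ratio over the 15 arrays was 0.72, with 95.2% of tested probe sets lower. With the ratio as a covariate the difference of Postn over 7 times was 0.24 (limma, adjusted p = 0.959), against 0.31 without it. The part of fibroblast content in the Postn values was not tested. The 3 genes most like Postn over the 14 arrays, of 11227 compared, were Cilp, the gene of a cartilage and heart matrix protein, with r = 0.91, Stt3a, an oligosaccharyltransferase subunit gene, with 0.91, and Adgrd1, an adhesion receptor gene, with 0.91.

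**Figure D2:**
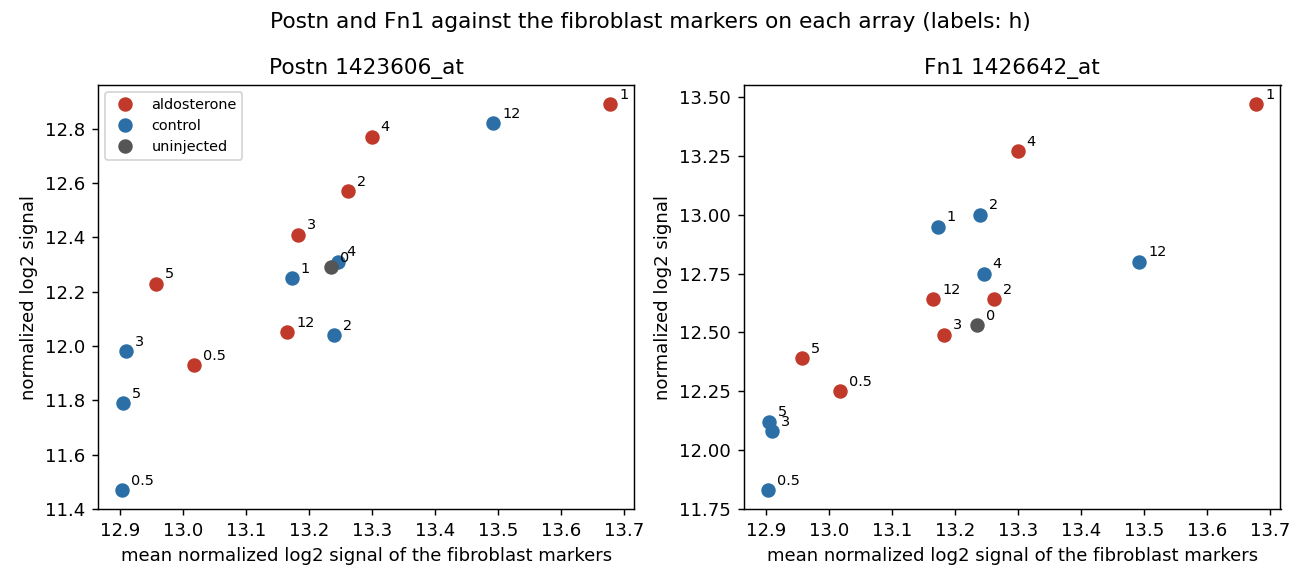
Normalized log2 signal of Postn (left) and Fn1 (right) on the y axis against the mean normalized log2 signal of the 14 fibroblast markers on the x axis, 1 point per array, labelled by time in h. Red is aldosterone, blue control and grey the uninjected array. Both genes lie along the markers (r = 0.86 for Postn and 0.87 for Fn1 over 14 timed arrays), with the 1 h aldosterone array at the top.

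Tenascin C (Tnc), an anti-adhesive matricellular protein scarce in the healthy adult heart, stayed below the filter with both its probe sets and was not tested. On 1416342_at it ran from 8.15 to 9.50 with aldosterone (median 9.03) and from 7.63 to 9.11 in control arrays (median 8.86), and was 9.23 in the uninjected array. The control arrays at 1 and 4 h were the lowest, and the arms overlapped. On 1456344_at it ran from 7.43 to 8.24 with aldosterone and from 7.49 to 8.17 in control arrays, near the floor of 7.39 that the added constant sets.

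Thrombospondin 1 (Thbs1), a matricellular protein that can activate latent TGF-beta, had 2 tested probe sets. On 1460302_at it was 9.95, 10.94, 11.31, 10.82, 11.15, 10.69 and 10.41 with aldosterone at the 7 times in order. In control arrays it was 10.18, 10.59, 10.87, 11.43, 11.12, 10.35 and 10.85, and 10.40 in the uninjected array. Levels were lowest at 0.5 h in both arms and higher from 2 to 4 h, and the arms overlapped. On 1450377_at the range was 10.18 to 10.65 with aldosterone and 9.90 to 11.23 in control arrays. With aldosterone this probe set was 10.47 at 0.5 h and lowest at 2 h (10.18), so the low at 0.5 h was not seen in that arm. In the control arm it was lowest at 0.5 h and highest at 3 h. The correlation of the probe sets over 14 arrays was 0.35. The genes most like 1460302_at over 14 arrays were Casp4, an inflammatory caspase gene, with r = 0.90, Tor1a, the torsin 1A gene, with 0.90 and Rasgef1b, a Ras exchange factor gene, with 0.89. Its correlation with the 10 endothelial markers was -0.71, against -0.06 for 1450377_at. The differences over 7 times were -0.02 ± 0.15 and -0.17 ± 0.16 (SE), each with an adjusted p of at least 0.973 by limma.

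SPARC (Sparc), a collagen-binding matricellular protein needed for collagen assembly, had 3 tested probe sets. On 1416589_at, its brightest, the level ran from 15.48 to 16.41 with aldosterone (median 16.17) and from 15.49 to 16.35 in control arrays (median 16.29), and was 16.19 in the uninjected array. The lowest values were those of the aldosterone array at 2 h and the control array at 4 h. On 1448392_at the range was narrow, 14.81 to 15.27 with aldosterone and 14.68 to 15.05 in control arrays, with 14.81 in the uninjected array. Over the times this probe set gave means that differed by at most 0.09, the smallest range of the 12. The third, 1458204_at, was dim and ran from 9.25 to 9.96 with aldosterone and from 8.85 to 10.65 in control arrays, and its correlation with the brightest was -0.08. The differences between arms over 7 times were -0.04, 0.17 and -0.18 for the 3 probe sets in that order (SE 0.13, 0.10 and 0.23), so they did not share a sign. The brightest probe set had a correlation of 0.78 with the endothelial markers and 0.74 with the 11 smooth muscle and pericyte markers over 14 arrays, but 1448392_at had only 0.07 and 0.11 and 1458204_at -0.01 and -0.19. The genes most like the brightest were Ptp4a2, a phosphatase gene, with r = 0.89, Macroh2a2, a histone variant gene, with 0.88 and Adck5 with 0.88.

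Lysyl oxidase (Lox), which crosslinks collagen and elastin, had 2 tested probe sets, and both were highest at 4 and 5 h in both arms. On 1416121_at it was 9.88, 10.90, 10.88, 10.57, 11.14, 11.21 and 10.42 with aldosterone at the 7 times in order. In control arrays it was 10.21, 9.96, 10.44, 10.56, 11.09, 10.98 and 10.59, and in the uninjected array 10.08. All 4 arrays at 4 and 5 h lay above the other 11, and the arms overlapped. On 1448228_at the 4 and 5 h arrays, 10.38 and 10.48 with aldosterone and 10.42 and 10.25 in the control arm, again lay above all others, the nearest being 10.21. The probe sets correlated at 0.75 over 14 arrays. The third Lox probe set, 1437903_at, was below the filter, at 7.80 to 9.25 with aldosterone, 7.84 to 8.60 in control arrays and 7.51 in the uninjected array.

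Over 0.5 to 5 h the slope of Lox was 0.22 ± 0.05 log2 per h (SE) on 1416121_at and 0.17 ± 0.05 on 1448228_at. By limma 0 of the 12 probe sets were called for this trend, where 0.165% of all were called, and 6 had an unadjusted p under 0.05 (2008, or 9.44%, of all). The adjusted p was 0.141 for the brighter Lox probe set (unadjusted 0.00078) and 0.320 for the other. With the Gapdh ratio as a covariate the slope of the brighter one was 0.19 with an adjusted p of 0.0336, and with scan day as a block 0.19 with 0.241. Within each scan day the later of its times to 5 h was the higher: 10.56 at 3 h against 10.04 at 0.5 h, 11.11 at 4 h against 10.43 at 1 h, and 11.09 at 5 h against 10.66 at 2 h, as means of both arms. Both arrays of a time were counted as separate although they shared the time and the scan day, so these p-values may be too small. The genes most like Lox were Map2k1, a MAP kinase kinase gene, with r = 0.91, Irak1bp1 with 0.90 and Lbp, which encodes the lipopolysaccharide binding protein, with 0.89. The differences between the arms over 7 times were 0.17 ± 0.15 and 0.11 ± 0.16 (SE).

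LOXL1 (Loxl1), the family member known for elastic fibre assembly, had 1 tested probe set and no steady difference between the arms. On 1451978_at it was 13.03, 12.84, 12.38, 13.12, 13.01, 12.55 and 12.91 with aldosterone at the 7 times in order. In control arrays it was 12.91, 13.11, 12.99, 12.49, 12.35, 12.41 and 12.93, and in the uninjected array 12.78. The aldosterone array was higher than control at 0.5, 3, 4 and 5 h and lower at 1, 2 and 12 h, and the arms covered the same range. Its windows are given with those of the other members, after Hspg2. The genes most like it over 14 arrays were Agfg2 with r = 0.85, Nos3, the endothelial nitric oxide synthase gene, with 0.83 and Ecm1, a secreted matrix protein gene, with 0.81, and the correlation with the endothelial markers was 0.61. The second probe set, 1436063_at, was below the filter, at 7.80 to 8.53 with aldosterone, 7.72 to 9.63 in control arrays and 7.77 in the uninjected array.

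Fibronectin (Fn1), the glycoprotein scaffold on which collagen and many matricellular proteins assemble, had 1 tested probe set, 1426642_at. With aldosterone it was 12.25, 13.47, 12.64, 12.49, 13.27, 12.39 and 12.64 at the 7 times in order. In control arrays it was 11.83, 12.95, 13.00, 12.08, 12.75, 12.12 and 12.80, and in the uninjected array 12.53. The aldosterone array was the higher at 0.5, 1, 3, 4 and 5 h and the lower at 2 and 12 h, and the arms overlapped. At 2 h the measured fat markers (-1.72) and the atrial markers (-1.30) were lower with aldosterone too, as differences of mean log2 signals. At 5 h, where Fn1 was higher, these markers were lower as well (-0.24 and -0.49), and their part in the Fn1 values was not tested. The difference of Fn1 averaged 0.23 with a 95% interval from -0.02 to 0.48 (limma, adjusted p = 0.973). The second Fn1 probe set, 1437218_at, was below the filter, at 7.77 to 9.35 with aldosterone, 8.27 to 9.76 in control arrays and 8.77 in the uninjected array.

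In order of the time means, Fn1 was 13.21 at 1 h, 13.01 at 4 h, 12.82 at 2 h, 12.72 at 12 h, 12.29 at 3 h, 12.25 at 5 h and 12.04 at 0.5 h. Neighbours in this order overlapped, except 12 h and 3 h: all 8 arrays at 1, 2, 4 and 12 h lay at or above 12.64, and all 6 at 0.5, 3 and 5 h at or below 12.49. The order followed scan day in part. The mean was 12.16 ± 0.28 on day 1 (SD, 4 arrays), 12.98 ± 0.33 on day 2 (6 arrays) and 12.54 ± 0.38 on day 3 (4 timed arrays), and on day 3 the 2 h arrays were above the 5 h arrays. The 1 h arrays, with the highest time mean of Fn1, were those with the lung markers. Without these arrays the adjusted p for time was 0.104 (limma). Over 14 arrays Fn1 had a correlation of 0.87 with the fibroblast markers and 0.90 with the 10 epicardial and mesothelial markers. With the measured fat markers it was 0.81, with the platelet markers 0.77, with the atrial markers 0.74 and with the neutrophil markers 0.72. It was 0.62 with the valve and tendon-like, 0.59 with the macrophage and 0.57 with the lung markers. With the remaining lists it ran from -0.41 to 0.01. With Postn the correlation was 0.80. The genes most like it were Cdo1, the gene of cysteine dioxygenase, with r = 0.93, Prss23, a serine protease gene, with 0.93 and Scd2, a fatty acid desaturase gene, with 0.92.

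Perlecan (Hspg2), the heparan sulfate proteoglycan of basement membranes, had the widest range over time of all members on both its probe sets. On 1418669_at it was 14.37, 13.10, 12.87, 13.78, 12.95, 12.57 and 13.06 with aldosterone at the 7 times in order. In control arrays it was 14.22, 13.64, 13.04, 13.44, 13.08, 13.45 and 12.73, and in the uninjected array 14.37. The 0.5 h and uninjected arrays were the highest, above all the others, and the arms overlapped. On 1418670_s_at it was 12.43, 10.44, 11.05, 12.49, 11.19, 11.48 and 10.90 with aldosterone, against 13.03, 12.22, 12.02, 11.79, 9.89, 10.74 and 10.32 in control arrays and 12.15 in the uninjected array. The probe sets correlated at 0.71 over 14 arrays, and their correlation with the smooth muscle and pericyte markers was 0.69 and 0.68 and with the endothelial markers 0.68 and 0.62 (1418669_at first). The genes most like 1418669_at were 1810030O07Rik with r = 0.90, Hdac7, a histone deacetylase gene, with 0.89 and Exoc6, an exocyst subunit gene, with 0.89. Lox on 1416121_at went the other way, with a correlation of -0.72 with 1418669_at and -0.72 with the smooth muscle and pericyte markers (-0.67 and -0.59 on 1448228_at).

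Both Hspg2 probe sets were low on arrays with a high Gapdh ratio. Over the 15 arrays the correlation was -0.72 on 1418669_at and -0.86 on 1418670_s_at, a value below which only 2.64% of tested probe sets lay. The aldosterone array at 3 h, with a ratio of -0.14, had 12.49 on 1418670_s_at, and the uninjected array, with 0.37, had 12.15. The control array at 4 h, with a ratio of 3.21, had 9.89. The control array at 5 h departed from this order, with a ratio of 0.47 and a level of 10.74. Scan day moved with it too, with means on 1418670_s_at of 12.44 ± 0.51 on day 1 (SD, 4 arrays), 10.83 ± 0.82 on day 2 (6 arrays) and 11.32 ± 0.55 on day 3 (4 arrays). The part of RNA degradation, of scan day, of chip lot and of station was not tested beyond the covariate and block fits given with the results.

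**Figure D3:**
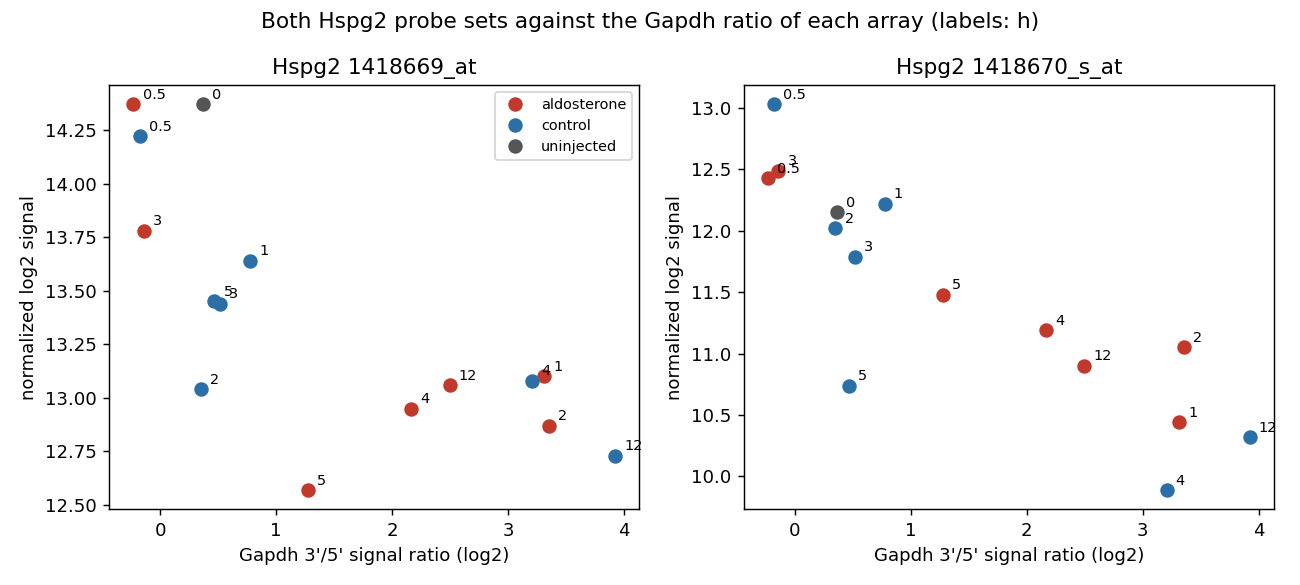
Normalized log2 signal of the 2 Hspg2 probe sets (y axes) against the log2 ratio of the 3′ over the 5′ Gapdh control probe set (x axes), 1 point per array, labelled by time in h. Red is aldosterone, blue control and grey the uninjected array. Signals are lower at higher ratios, with r = -0.72 (left) and -0.86 (right) over 15 arrays.

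Within windows of time, the question was whether the arms differed at 0.5 to 2 h, at 3 to 5 h, or between these windows. Hspg2 on 1418670_s_at was lower with aldosterone at 0.5, 1 and 2 h (differences of -0.60, -1.78 and -0.97) and higher at 3, 4, 5 and 12 h (0.70, 1.301, 0.74 and 0.58). On 1418669_at the same pairs gave 0.15, -0.54, -0.16, 0.34, -0.14, -0.88 and 0.33, so the signs on this probe set did not follow the windows. By limma the early window of 1418670_s_at was -1.11 ± 0.22 (SE, adjusted p = 0.416), the later window 0.92 ± 0.22 (adjusted p = 1.00) and the later minus the earlier window 2.03 ± 0.31 (adjusted p = 0.317). The Gapdh ratio of the pairs differed by -0.06, 2.54 and 3.00 at 0.5, 1 and 2 h and by -0.66, -1.04 and 0.81 at 3, 4 and 5 h. With it as a covariate the windows were -0.70 and 0.85 and their difference 1.55 (adjusted p = 0.655). Without the 0.5 h arrays the early window was -1.37 (adjusted p = 0.0355) and the difference of windows 2.29 (adjusted p = 0.0417), both then past the threshold. These fits also called probe sets outside the members, by counts given at the end, where the main fits called 0 of all. The early window then rested on the 1 and 2 h pairs, those with Gapdh ratio differences of 2.54 and 3.00, and their part was not tested. With no time block, which sets each window against the mean of all 7 control arrays, the windows were -0.12 and 0.29 and their difference 0.41.

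Postn was higher with aldosterone in both windows, by 0.54 ± 0.12 at 0.5 to 2 h (SE, adjusted p = 0.416 by limma) and by 0.44 ± 0.12 at 3 to 5 h (adjusted p = 1.00), with a difference of windows of -0.10 ± 0.17. Loxl1 gave -0.25 ± 0.16 and 0.47 ± 0.16 in the windows, and 0.72 ± 0.23 between them (adjusted p = 0.739). The early value of Loxl1 did not keep its sign: the Gapdh covariate gave 0.18, and 0.23 between the windows, while the fit with no time block gave 0.01, and 0.14 between them. Fn1 gave 0.19 ± 0.17 and 0.40 ± 0.17, and 0.21 ± 0.24 between them. Of the 12 probe sets, 0 were called in the early window, the later window or their difference, where 0% of all probe sets were called in each. At an unadjusted p under 0.05 there were 2 of 12 in the early window (2226 of all, 10.5%), 4 of 12 in the later one (684 of all, 3.22%) and 3 of 12 for the difference (1436 of all, 6.75%). The early window differences of the 12 had a median of 0.11, against 0.02 over all tested probe sets, and the later ones a median of 0.13, against 0.00.

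**Figure D4:**
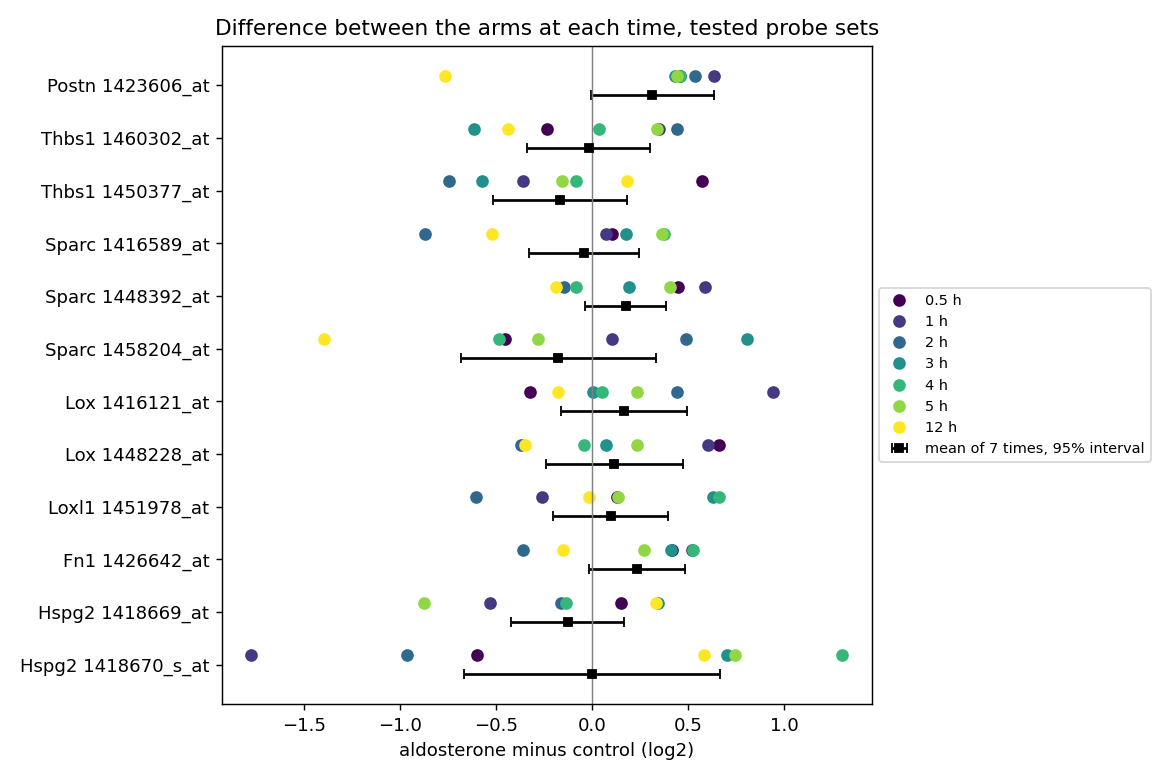
Difference between the arms (x axis, aldosterone minus control, log2) for the 12 tested probe sets (y axis), with 1 coloured point per time and, below each row of points, a black square for the mean of 7 times with its 95% interval from limma. All 12 intervals include 0. The 6 Postn points to 5 h lie together between 0.43 and 0.63 with the 12 h point at -0.77, and the points of Hspg2 1418670_s_at spread from -1.78 to 1.301.

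Across the 7 times, with treatment as a covariate, 0 of the 12 probe sets were called by limma. Of all probe sets 1.94% were called (413 of 21272). An unadjusted p under 0.05 was found for 5 of 12 (4070 of all, 19.1%). Both arrays of a time were counted as separate although they shared the scan day, so the p-values for time may be too small. The 2 nearest the threshold were Fn1, whose time means spanned 1.17 (adjusted p = 0.0510), and Hspg2 on 1418669_at, which spanned 1.40 (adjusted p = 0.0529). Both passed when the filter was raised to the 75th percentile of signals, and Fn1 also passed on the deposited scaling. Fn1 passed too without the 2 h arrays (adjusted p = 0.0130), and Hspg2 on 1418669_at without the 1 h (0.0451), 2 h (0.0411) or 5 h arrays (0.0346). With scan day as a block, which leaves only differences between times of the same day, their adjusted p-values were 0.579 and 0.662. The Gapdh covariate gave 0.165 and 0.202. Hspg2 on 1418670_s_at spanned 2.20 (adjusted p = 0.186), Lox on 1416121_at 1.07 (adjusted p = 0.205), Thbs1 on 1460302_at 1.07 (adjusted p = 0.168) and Postn 0.87 (adjusted p = 0.305). The 0.5 h arrays carried much of these spans: without them Hspg2 spanned 0.72 on 1418669_at and 1.60 on 1418670_s_at, Lox on 1416121_at 0.68, Thbs1 on 1460302_at 0.62, Postn 0.56 and Fn1 0.96. The time means of the 12 spanned a median of 0.91, against 0.63 over all tested probe sets. At 12 h against 0.5 to 5 h, 0 of 12 were called, where 0.0611% of all were called, and 0 had an unadjusted p under 0.05 (1991 of all, 9.36%). The slopes from 0.5 to 5 h other than Lox with an unadjusted p under 0.05 were those of Hspg2 (-0.19 ± 0.07 and -0.29 ± 0.13 per h), Sparc on 1416589_at (-0.11 ± 0.05) and Loxl1 (-0.10 ± 0.05), with adjusted p-values of 0.427 to 0.528. Without the 0.5 h arrays the Hspg2 slopes were -0.07 and -0.14.

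Around the members, 4 lists of other genes were read on 1 probe set per gene: their relatives (23 tested), the matrix scaffold and basement membrane (29), the receptors that bind them (20) and the TGF-beta pathway (26). For aldosterone over 7 times 0 genes of the 4 lists were called by limma, nor any of 11228 genes, and 1, 0, 0 and 1 of their genes had an unadjusted p under 0.05. The list medians were 0.07, 0.02, 0.02 and 0.02, against 0.01 over all genes. The relatives with the smallest p were Ccn3, a CCN family matricellular gene, at 0.41 ± 0.17 (SE), and Ogn, the gene of the small proteoglycan osteoglycin, at 0.15 ± 0.08. In the TGF-beta list it was Ltbp3, the gene of a latent TGF-beta binding protein, at 0.21 ± 0.09, and among receptors Itgb1, the integrin beta 1 gene, at -0.20 ± 0.11.

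For time, 3 of the 23 relatives were called and 0 of the tested genes of the other 3 lists. Of all 11228 genes, 192 (1.71%) were called. Both arrays of a time were again counted as separate, so these p-values may be too small. Tgm2, which encodes transglutaminase 2, another matrix crosslinking enzyme, had time means from 13.80 at 0.5 h to 14.93 at 4 h (adjusted p = 0.0171 by limma). Ccn2, the connective tissue growth factor gene and a TGF-beta target, had means from 12.48 at 0.5 h to 13.82 at 4 h (adjusted p = 0.0314). Ccn5, a CCN family gene of smooth muscle and fibroblasts, had means from 9.46 at 5 h to 11.21 at 12 h (adjusted p = 0.0484). With scan day as a block, where only times of the same day are compared, Tgm2 stayed called (adjusted p = 0.0197). Ccn2 (0.167) and Ccn5 (0.456) did not. With the Gapdh ratio as a covariate Tgm2 was called (0.00377) and Ccn2 (0.153) and Ccn5 (0.143) were not. Ccn5 was also lost with a pseudocount of 16 (0.0630) and with no filter (0.103). Without a variance trend all 3 missed the threshold, with adjusted p-values of 0.124, 0.132 and 0.0962 in that order of genes. Of the 7 fits that left out a time, Tgm2 missed it in 2 (0.167 without 0.5 h and 0.0608 without 4 h), Ccn2 in 3 (0.173 without 0.5 h, 0.0815 without 4 h and 0.0723 without 5 h) and Ccn5 in 6, all but the one without 2 h. Without the 12 h arrays Ccn5 had 0.246 and its time means spanned 1.05, against 1.75 with them. The scaffold genes nearest the threshold were Emilin1, an elastic fibre glycoprotein gene, with time means spanning 1.75 (adjusted p = 0.0642), and Efemp1, the fibulin 3 gene, spanning 1.29 (0.0914). Among receptors they were Cd44, a hyaluronan and osteopontin receptor gene, spanning 1.35 (0.0779), and Itga8, the integrin alpha 8 gene, spanning 1.81 (0.0895).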

How the data were processed

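RNA of mouse whole hearts was measured on 15 Affymetrix arrays. The deposited values are linear signals, an intensity per probe set made by the authors with GCOS 1.2, per the submitters' processing notes, with a 2% trimmed mean of 1500 on every array. Whether an array is 1 animal or a pool is not stated, and p-values therefore reflect variation between arrays, part of which may be technical. With 1 array per arm and time, the times stood in for replicates in the aldosterone fits. The error of those fits thus mixes variation from array to array with any change over time in the difference between the arms. The number of arrays limits the precision.

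Signals plus 167.8 (their 25th percentile) were put on a log2 scale, so folds of dim genes are understated. The highest array median was 1.79 times the lowest, over a limit of 1.3, and quantile normalization was applied. Testing covered probe sets whose mean over the timed arrays (normalized log2) reached the median signal (526.7), by limma 3.58.1 in R 4.3.3 (reading with data.table, version 1.17.8; figures with matplotlib 3.10.9), with a variance trend and Benjamini-Hochberg adjustment over 21272 probe sets, called under 0.05. Aldosterone effects had time as a block, because both arms were sampled at the same times. Time, 12 h and trend fits had treatment as a covariate. Scripts were tested on simulated data.

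All members were named. Of the lists, up to 4 genes with the smallest p in a fit could be named, and for each member the 3 most correlated genes. Members and lists were chosen with earlier results of these data known. Gene symbols came from the platform annotation. Alternatives were the deposited scaling, a pseudocount of 16, other filters, no variance trend, the Gapdh ratio as a covariate, scan day as a block, no time block, and each time left out.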

Additional observations from a re-analysis of the deposited data

Results flagged for a closer look

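The 3 values that follow stood apart from their group by Dixon's criterion for 7 arrays, in 34 tests made, where chance marks about 1 in 20. Tnc on 1456344_at was 8.24 in the aldosterone array at 0.5 h, with the nearest other aldosterone array at 7.66. On the same probe set the control array at 5 h was 8.17, with the nearest at 7.67, and this probe set was below the filter. Sparc on 1458204_at was 9.25 in the aldosterone array at 12 h, with the nearest at 9.65.

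Hspg2 on 1418670_s_at had a difference between the arms that was 2.03 higher at 3 to 5 h than at 0.5 to 2 h (log2), with the aldosterone array lower in each of 3 early pairs and higher in each of 3 later pairs. The difference of the windows was tested and was not called by limma (adjusted p = 0.317).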

How the results depend on the processing

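Of 1208 alternative fits of a member probe set, 1120 kept the sign of the value reported and 88 did not, and none of the 88 was called in either fit. For time, 1 probe set was called on the deposited scaling (Fn1) and 2 with the filter at the 75th percentile (Fn1 and Hspg2 1418669_at), and between 0 and 2 when each time was left out in turn. In the main fit Fn1 and Hspg2 1418669_at lay just above the threshold (limma, adjusted p = 0.0510 and 0.0529). The share of all probe sets called on the deposited scaling and with the higher filter is not given here, so these calls cannot be set against it. For the trend, 1 was called with the Gapdh ratio as a covariate (Lox 1416121_at). Leaving out each time gave 0 to 1 calls for 0.5 to 2 h and for the later minus the earlier window. Hspg2 1418670_s_at over 7 times, at -0.00, was 0.00592 on the deposited scaling, 0.0146 with a pseudocount of 16 and 0.232 with the Gapdh covariate, and ran from -0.219 to 0.294 when each time was left out. The same ranges were -0.0962 to 0.0799 for Thbs1 1460302_at, -0.114 to 0.0929 for Sparc 1416589_at and -0.340 to 0.0274 for Sparc 1458204_at, all over 7 times, and -0.0639 to 0.375 for Fn1 later minus earlier. With the Gapdh covariate Loxl1 at 0.5 to 2 h was 0.179 and Fn1 later minus earlier -0.100. With no time block (no replicate block), which sets each window against the mean of all 7 control arrays, Hspg2 1418670_s_at later minus earlier was 0.413, Loxl1 at 0.5 to 2 h 0.0126, Postn later minus earlier 0.0101 and Fn1 later minus earlier -0.0696. Over all probe sets, the count called for time was 413, and between 87 and 899 with a time left out, 54 with no variance trend, 108 with a scan day block, 216 with the Gapdh covariate and 246 with no filter. For the trend it was 35, and 2 to 37 with a time left out, 111 with the Gapdh covariate, 55 with the higher filter and 17 with no variance trend. For 12 h it was 13, and 2 to 20 with a time left out, 24 with a pseudocount of 16, 25 with no filter, 6 with the Gapdh covariate and 1 with scan day as a block or the higher filter. Without the 0.5 h arrays 235 were called at 0.5 to 2 h and 31 for the later minus the earlier window, both 0 otherwise. The cause of these shifts was not tested. A filter on the arithmetic mean signal was added after the data were seen and moved no count of members. The 12 h comparison could not be made without the 12 h arrays.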
